A study of Mus musculus with 3 samples.

Results

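The genes described here are 8 ligands and receptors of the tumour necrosis factor (TNF) family, namely Tnf, Tnfrsf1a, Tnfrsf1b, Tnfsf10, Tnfrsf10b, Tnfrsf23, Ltb and Tnfsf14. They were taken by symbol, and all 8 were found once each among the 28692 genes of the deposited count matrices. The material was 3 single-cell RNA libraries, replicates 1 to 3 of 1 group. Cells of the mouse tumour line 2208L had been injected into the mammary gland, and the tumours were taken after 4 weeks, at a diameter between 0.7 and 1 cm. The labels give no strain, age, treatment or untreated control, and do not say whether the 3 libraries came from separate mice, so every p-value speaks only for the spread between these libraries. Viable cells were sorted as CD45+ and DAPI-, that is, as leukocytes that exclude a dead-cell dye, before 10x Genomics library preparation. The comparisons are therefore between cell classes and between neutrophil states of the same libraries.

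TNF family ligands are trimers made as membrane proteins, and some are cut from the cell surface. Tnf encodes the inflammatory cytokine TNF, which binds TNFR1 (Tnfrsf1a), a receptor with a death domain found on most cells, and TNFR2 (Tnfrsf1b), which lacks a death domain and is found mainly on immune cells. Tnfsf10 encodes TRAIL, a ligand that can trigger apoptosis. Tnfrsf10b encodes the death-inducing TRAIL receptor of the mouse, and Tnfrsf23 a mouse decoy receptor for TRAIL without a death domain. Ltb encodes lymphotoxin beta, which forms a membrane heterotrimer with the product of Lta and signals through the lymphotoxin beta receptor (Ltbr). Tnfsf14 encodes LIGHT, which binds Ltbr and HVEM (Tnfrsf14). Many of these receptors lead to NF-kB, a transcription factor family whose target genes include inhibitors of the same pathway.

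Positions are from GENCODE on GRCm38. Tnf lies at chr17:35199381-35202007 on the minus strand and Ltb at chr17:35194439-35196320 on the plus strand, with 3060 bases between them. The microRNA gene Mir6973a lies inside Ltb, and 1157 bases separate Tnf from Lta. Tnfrsf23 lies at chr7:143665809-143685872 on the minus strand, 16147 bases from its relative Tnfrsf22. An antisense gene, E230032D23Rik, overlaps Tnfrsf23, Tnfrsf22 and Tnfrsf26, and these receptor genes are related in sequence, so reads could have been divided among them and their counts are uncertain. The others are Tnfrsf1a (chr6:125349362-125362484, plus strand), Tnfrsf1b (chr4:145213463-145246870, minus strand), Tnfsf10 (chr3:27317028-27342427, plus strand), Tnfrsf10b (chr14:69767472-69784411, plus strand) and Tnfsf14 (chr17:57189492-57194177, minus strand). All 8 are protein-coding.

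RefSeq promoters (GRCm38.p6, 250 bases before to 50 after the start) were found for 7 of the 8, with none for Tnfrsf10b. The bases before the start are shown for Tnf and Ltb, neighbours whose class patterns differed, and for Tnfrsf23, the gene with the largest difference between the neutrophil-like and the monocyte/macrophage-like class. Capitals mark a match, on either strand, to the NF-kB consensus or to TATAAA. The regions are chr17:35202008-35202257 (minus strand) for Tnf, chr17:35194257-35194438 (plus strand, ended at the GENCODE start, 68 bases before that of RefSeq) for Ltb and chr7:143685876-143686125 (minus strand) for Tnfrsf23.
Tnf: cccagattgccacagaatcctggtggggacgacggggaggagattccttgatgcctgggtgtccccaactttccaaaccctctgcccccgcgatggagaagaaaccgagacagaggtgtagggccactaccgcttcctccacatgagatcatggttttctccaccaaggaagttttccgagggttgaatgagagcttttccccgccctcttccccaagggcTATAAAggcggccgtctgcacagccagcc
Ltb: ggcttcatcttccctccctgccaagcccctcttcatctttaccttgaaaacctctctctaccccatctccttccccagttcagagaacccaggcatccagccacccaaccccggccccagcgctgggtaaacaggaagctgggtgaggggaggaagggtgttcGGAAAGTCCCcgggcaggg
Tnfrsf23: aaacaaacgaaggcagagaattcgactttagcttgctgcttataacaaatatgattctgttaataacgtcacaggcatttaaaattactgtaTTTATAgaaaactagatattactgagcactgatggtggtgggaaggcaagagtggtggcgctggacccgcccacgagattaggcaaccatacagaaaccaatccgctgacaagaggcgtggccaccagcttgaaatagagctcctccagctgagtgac
The Ltb promoter held the only NF-kB consensus match among the 7, GGGACTTTCC on its minus strand between positions -87 and -78 from the RefSeq start, and 4.53% of 32544 RefSeq promoters hold one. TATAAA stood at -29 to -24 in Tnf, and at -158 to -153 on the minus strand in Tnfrsf23, against 13.6% of all promoters. Of the other motifs searched on both strands, TGANTCA (7.79% of all promoters) matched in Tnfsf14 alone and the core of the interferon-stimulated response element (3.45%) in Tnfrsf1b alone. GAGGAA (28.1%) matched in Tnf, Tnfrsf1b, Ltb and Tnfsf14. A narrower form of the NF-kB consensus (0.415%), which overlaps it, matched in Ltb at the same place. A match describes letters in a window and does not show binding.

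The libraries held 9846404, 15259236 and 9445914 unique molecular identifiers (UMIs, counted RNA molecules) over 4424, 6036 and 3876 cell barcodes, of which 14225 of 14336 were used. Median depth was 1239 to 1549 UMIs a barcode. Between 25 and 37 barcode sequences were shared by any pair of libraries and 0 by all 3. Barcodes were clustered without the 8 genes, the related pathway genes or Icam1, and clusters were named from marker genes, so classes are called "-like". There were 6174 neutrophil-like, 3206 T-cell-like, 3142 monocyte/macrophage-like, 511 dendritic-cell-like, 504 NK-cell-like, 272 epithelial-like, 209 plasmacytoid-dendritic-cell-like and 77 B- or plasma-cell-like barcodes. A cluster of 130 with both T-cell and neutrophil transcripts stayed unnamed. Epithelial-like barcodes were present in spite of the CD45 sort. Levels are given as CPM, the UMIs of a gene per 1000000 UMIs of the class in a library. Epithelial-like barcodes carried 12 neutrophil markers, among them S100a8, S100a9, Lcn2 and Mmp9, at a summed 7552 to 8376 CPM. In neutrophil-like barcodes these markers summed to 64903 to 74249 CPM. Whether the marker UMIs in epithelial-like barcodes came from neutrophils was not tested. Doublet calling marked 0.007% of barcodes and so did not work, and an alternative without the 568 barcodes of highest doublet score is given among the dependences on processing.

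Class levels of the ligands separated into 2 kinds. Tnf and Tnfsf14 were highest in neutrophil-like cells, while Tnfsf10 and Ltb were highest in NK-cell-like and T-cell-like cells. Levels are CPM, given as mean ± SD over the 3 libraries (n = 3), and per-library values are in the order of replicates 1, 2 and 3. Neighbours in an order of levels were compared with edgeR's quasi-likelihood test on UMI sums per library and class, with Benjamini-Hochberg adjustment over the 9453 genes tested and a term for the library. Many genes differ between any pair of classes, which bears on each step called. Of all genes tested, 71.0% passed between neutrophil-like and epithelial-like, 57.6% between neutrophil-like and dendritic-cell-like, 9.11% between NK-cell-like and T-cell-like, and 54.8% between epithelial-like and dendritic-cell-like sums. Between plasmacytoid-dendritic-cell-like and T-cell-like sums 32.7% passed, between dendritic-cell-like and plasmacytoid-dendritic-cell-like sums 22.4%, and between epithelial-like and monocyte/macrophage-like sums 63.1%.

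Tnf was at 194, 168 and 199 CPM in neutrophil-like sums, at 59.1, 42.6 and 62.3 CPM in T-cell-like sums and at 33.8, 36.4 and 48.1 CPM in monocyte/macrophage-like sums. Every neutrophil-like value lay above every value of both other classes, while the T-cell-like and monocyte/macrophage-like ranges overlapped. The means were 187 ± 17.1 CPM in neutrophil-like, 54.7 ± 10.5 CPM in T-cell-like and 39.4 ± 7.62 CPM in monocyte/macrophage-like sums. Plasmacytoid-dendritic-cell-like (22.4 ± 19.4), dendritic-cell-like (21.9 ± 21.0), NK-cell-like (15.1 ± 3.73) and epithelial-like sums (4.38 ± 3.18 CPM) followed. In that order, the step between neutrophil-like and T-cell-like sums and the step between T-cell-like and monocyte/macrophage-like sums passed the test, and no later step did. Neutrophil-like barcodes held 54.6% of all Tnf UMIs (mean of the libraries), T-cell-like barcodes 13.6% and monocyte/macrophage-like barcodes 27.2%.

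Depth per barcode bears on how these levels read. Per 100 barcodes there were 19.1 ± 3.83 Tnf UMIs in neutrophil-like cells, against 20.8 ± 8.65 in monocyte/macrophage-like cells. Their median depths were 901 UMIs in neutrophil-like and 4280 UMIs in monocyte/macrophage-like barcodes. The difference in CPM is thus one of Tnf relative to the rest of the RNA in the class. For a comparison at equal depth, barcodes were thinned to 600 UMIs and shallower ones were left out. Left out were 771 of 6174 neutrophil-like, 30 of 3206 T-cell-like and 11 of 3142 monocyte/macrophage-like barcodes. Of the rest, 7.83% of neutrophil-like, 2.43% of T-cell-like and 1.95% of monocyte/macrophage-like barcodes kept a Tnf UMI. Epithelial-like barcodes, at a median depth of 8749 UMIs, gave 0.775%.

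Tnfsf14 was at 36.7, 41.9 and 41.3 CPM in neutrophil-like sums, at 18.2, 15.3 and 23.6 CPM in T-cell-like sums and at 6.98, 5.62 and 5.91 CPM in monocyte/macrophage-like sums. These 3 classes did not overlap. NK-cell-like sums had 12.6 ± 6.39 CPM from 12 UMIs, and no step between T-cell-like, NK-cell-like and monocyte/macrophage-like neighbours passed the test. No UMI of Tnfsf14 was found in dendritic-cell-like sums, which allows up to 1.21 CPM, or in epithelial-like sums, which allows up to 1.12 CPM (3 counts over the class). Both limits cover counting error only.

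Ltb was at 1634, 1253 and 1513 CPM in NK-cell-like sums, at 1387, 1224 and 1478 CPM in T-cell-like sums and at 717, 1060 and 881 CPM in neutrophil-like sums. The lymphoid ranges overlapped each other and lay above all 3 neutrophil-like values. Dendritic-cell-like sums were at 381, 413 and 332 CPM, and monocyte/macrophage-like sums at 101, 178 and 109 CPM. Plasmacytoid-dendritic-cell-like sums (129 ± 100 CPM) spread over the range of several classes, and epithelial-like sums had 25.6 ± 16.9 CPM. Down the order, the steps that passed were neutrophil-like over dendritic-cell-like, dendritic-cell-like over plasmacytoid-dendritic-cell-like, and monocyte/macrophage-like over epithelial-like sums. The B- or plasma-cell-like class, too small to test, stood at 1123 ± 412 CPM. Although their CPM was lower, neutrophil-like barcodes held 32.0% of all Ltb UMIs, against 41.5% in T-cell-like barcodes.

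Tnfsf10 was at 43.0, 62.4 and 58.0 CPM in NK-cell-like sums, at 11.9, 34.6 and 25.1 CPM in T-cell-like sums and at 4.15, 4.21 and 5.34 CPM in monocyte/macrophage-like sums. NK-cell-like values lay above all T-cell-like values, and these above all monocyte/macrophage-like values. T-cell-like over NK-cell-like sums gave -1.08 ± 0.34 on the log2 scale (adjusted p = 0.0450). Neutrophil-like sums held only 4 Tnfsf10 UMIs over the 3 libraries, 0.604 ± 0.751 CPM. Dendritic-cell-like sums held 3, and plasmacytoid-dendritic-cell-like sums held 0, which allows up to 3.83 CPM. Because classes differ in size, T-cell-like barcodes carried 48.8% of all Tnfsf10 UMIs, NK-cell-like barcodes 17.5% and monocyte/macrophage-like barcodes 29.1%.

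**Figure D1:**
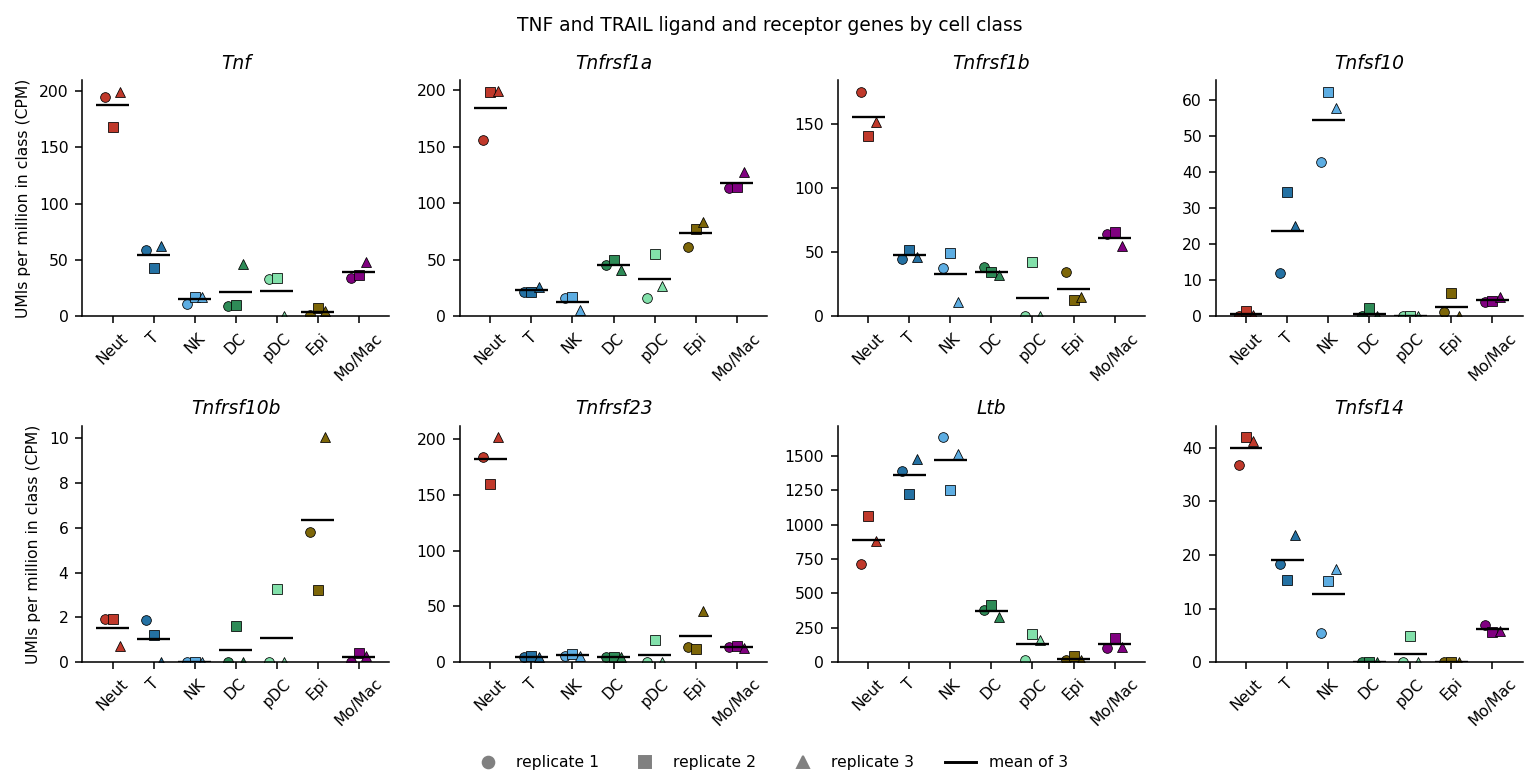
CPM of each of the 8 genes by cell class, 1 panel a gene with its own axis from 0; each point is 1 library (marker shape gives the replicate) and each black line is the mean of 3 libraries. Tnf, Tnfsf14, Tnfrsf1a, Tnfrsf1b and Tnfrsf23 peak in neutrophil-like sums, Tnfsf10 and Ltb in NK-cell-like sums, and Tnfrsf10b, at 6.35 ± 3.43 CPM, in epithelial-like sums.

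The receptors had their highest mean CPM in neutrophil-like cells, apart from Tnfrsf10b. Tnfrsf1a, the receptor with the death domain, was at 156, 199 and 199 CPM in neutrophil-like sums and at 114, 114 and 128 CPM in monocyte/macrophage-like sums. The ranges did not overlap. Epithelial-like (74.1 ± 11.3), dendritic-cell-like (45.7 ± 4.20), plasmacytoid-dendritic-cell-like (33.1 ± 20.2), T-cell-like (23.2 ± 2.86) and NK-cell-like sums (13 ± 6.24 CPM) followed. In that order the step between the 2 dendritic classes and the step between T-cell-like and NK-cell-like sums did not pass the test, and the others did. The step between plasmacytoid-dendritic-cell-like and T-cell-like sums (0.77 ± 0.29 on the log2 scale, adjusted p = 0.0401) rests on replicate 2. The 3 libraries had 16.5, 55.5 and 27.2 CPM in plasmacytoid-dendritic-cell-like sums, with 34 of 38 UMIs in replicate 2, against 21.4, 21.7 and 26.5 CPM in T-cell-like sums. Macrophage markers moved with it, at 661, 6436 and 525 CPM in plasmacytoid-dendritic-cell-like sums, and their part was not tested. Monocyte/macrophage-like barcodes, being deeper, still held 51.1% of all Tnfrsf1a UMIs, and neutrophil-like barcodes 34.2%.

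Tnfrsf1b, which encodes TNFR2, was at 176, 141 and 152 CPM in neutrophil-like sums and at 64.2, 65.7 and 54.9 CPM in monocyte/macrophage-like sums, which do not overlap. T-cell-like sums had 47.9 ± 3.52, dendritic-cell-like sums 35.0 ± 3.12 and NK-cell-like sums 32.8 ± 19.3 CPM. No step between neighbours below the neutrophil-like class passed the test, while the wider gap between dendritic-cell-like and monocyte/macrophage-like sums did, with the values given further on.

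Tnfrsf23, the decoy receptor, was at 184, 159 and 201 CPM in neutrophil-like sums, at 13.9, 11.8 and 45.7 CPM in epithelial-like sums and at 13.7, 14.6 and 12.4 CPM in monocyte/macrophage-like sums. The neutrophil-like values were far above all others, and the epithelial-like mean of 23.8 ± 19.0 CPM was raised by replicate 3. Neutrophil markers summed to 7596, 8376 and 7552 CPM in epithelial-like sums, lowest in replicate 3, and their part in this level was not tested. T-cell-like sums had 5.15 ± 0.826 CPM from 29 UMIs. Neutrophil-like barcodes held 76.1% of all Tnfrsf23 UMIs. After thinning of barcodes with at least 600 UMIs, 9.29% of neutrophil-like against 0.157% of T-cell-like barcodes kept a UMI. The steps between neutrophil-like and epithelial-like sums (log2 fold change 3.18 ± 0.23, SE) and between epithelial-like and monocyte/macrophage-like sums passed the test.

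Tnfrsf10b, the death-inducing TRAIL receptor, had 40 UMIs in all 3 libraries together and was not tested. Of these, 17 came from epithelial-like barcodes, at 5.81, 3.22 and 10.0 CPM, and 9 from neutrophil-like barcodes, at 1.93, 1.93 and 0.737 CPM. All 3 epithelial-like values lay above the neutrophil-like ones, yet the CPM of a class rested on few molecules. T-cell-like barcodes gave 6 UMIs and monocyte/macrophage-like barcodes 4.

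**Figure D2:**
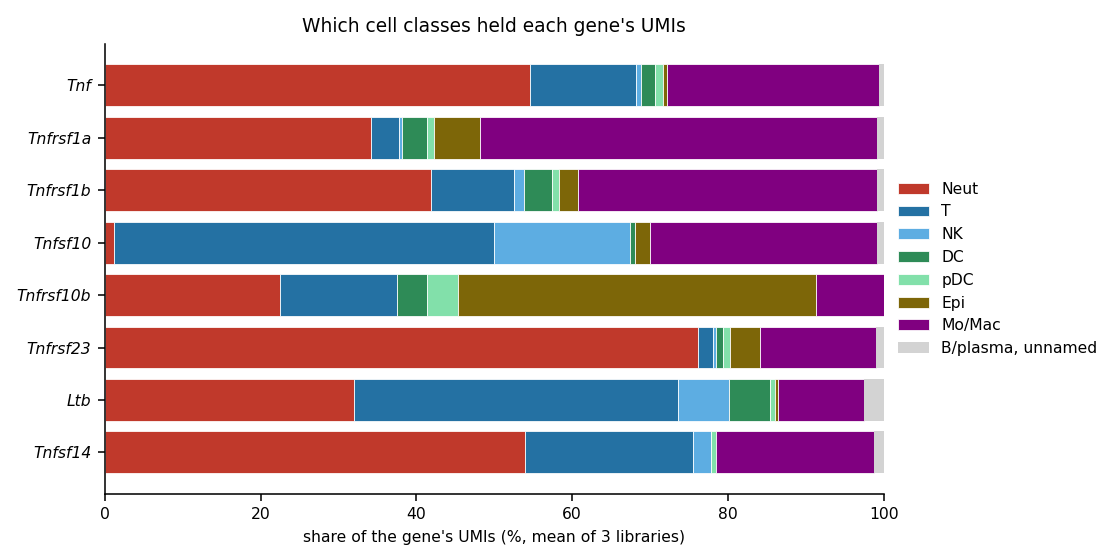
Share of each gene's UMIs (percent, mean of 3 libraries, stacked to 100) that came from each class. Neutrophil-like barcodes held 76.1% of Tnfrsf23 and 54.6% of Tnf, T-cell-like barcodes 48.8% of Tnfsf10, and monocyte/macrophage-like barcodes 51.1% of Tnfrsf1a.

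Neutrophil-like cells were set against monocyte/macrophage-like cells, the other abundant myeloid class. Relative to it, 6 of the 7 genes tested were higher and 1 was lower, in a comparison where 66.4% of all 9453 genes passed (33.1% higher and 33.3% lower), so the count alone says little. The median log2 fold change was 2.56 for the 7 genes and -0.03 for all genes tested. Folds below come from the same edgeR fit, scaled by the trimmed mean of M-values (TMM). The largest was that of Tnfrsf23, 4.01 ± 0.18 on the log2 scale (SE, adjusted p = 2.35e-18), higher in 3 of 3 libraries. Ltb followed at 3.10 ± 0.21 (adjusted p = 3.32e-14), Tnfsf14 at 3.0 ± 0.20 (adjusted p = 2.66e-13) and Tnf at 2.56 ± 0.15 (adjusted p = 1.64e-15). Both TNF receptors were higher by less, Tnfrsf1b by 1.65 ± 0.14 (adjusted p = 4.45e-12) and Tnfrsf1a by 0.96 ± 0.10 (adjusted p = 3.27e-10). Tnfsf10 was lower, at -2.42 ± 0.66 (adjusted p = 0.00201), resting on 4 neutrophil-like UMIs, and stood at -3.78 without replicate 2.

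Scaling shifts the whole comparison between these classes. With library totals in place of TMM the median of all genes was -0.34 in place of -0.03, and calls split into 2301 higher and 4092 lower in place of 3129 and 3152. The 7 genes kept their direction and their call. Tnfrsf1a, the smallest, was then at 0.64.

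Among the related pathway genes, 12 of 15 members of the NF-kB feedback and target list were higher, 1 was lower and 2 were not called. Of all genes tested, 33.1% were higher and 33.3% lower. The median log2 fold change of the list was 1.32, and its members were chosen with earlier results of these data known. With library totals the list again had 12 higher and 1 lower. Ier3, an early-response gene, was at 4713 ± 612 CPM in neutrophil-like sums, against 512 ± 26.8 CPM in monocyte/macrophage-like sums, with a log2 fold change of 3.51 ± 0.22. Nfkbia, which encodes the inhibitor IkB alpha, had 2.99 ± 0.17, Tnfaip2 3.36 ± 0.19 and Tnip1, a partner of the inhibitor A20, 2.05 ± 0.13. Of 22 receptor adaptor and NF-kB activation genes, 13 were higher and 4 lower (10 and 7 with library totals), with Traf1 at 1.72, Birc3 at 1.63, Relb at 1.42 and Rela at 1.32. All 8 genes named here passed with an adjusted p of at most 1.77e-10.

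Other TNF family receptors split in both directions. Of 16 tested out of 24, 6 were higher and 4 lower (4 and 4 with library totals). Tnfrsf26, a relative and genomic neighbour of Tnfrsf23, was at 70.6 ± 13.1 CPM in neutrophil-like sums, against 5.55 ± 0.905 CPM in monocyte/macrophage-like sums, and Fas, the receptor for Fas ligand, at 85.8 ± 13.1 CPM in neutrophil-like sums, against 13.3 ± 2.97 CPM in monocyte/macrophage-like sums. Lower were Tnfrsf11a (RANK), with a log2 fold change of -5.14 ± 0.33, and Cd40, with -2.61 ± 0.24. Of the 7 other ligands tested out of 14, 1 was higher and 3 lower (1 and 4 with library totals). Among the lower ones was Tnfsf12 (TWEAK), at 1.71 ± 1.96 CPM in neutrophil-like sums, against 75.9 ± 12.1 CPM in monocyte/macrophage-like sums. Among death receptor signalling genes 7 of 10 were higher and 2 lower (5 and 2 with library totals). Cflar, which encodes the caspase-8 inhibitor cFLIP, was higher by 1.55 ± 0.11, and Fadd, the adaptor of death receptors, was lower at -1.69 ± 0.27. Of the 6 genes for shedding of TNF, 1 was higher and 2 lower (0 and 3 with library totals), and Adam10, a surface protease, was lower at -0.65 ± 0.17.

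Neutrophil-like cells were next set against T-cell-like cells. Here 5 of 7 genes were higher, 1 was lower and 1 did not pass, against 65.0% of all genes called (34.1% higher and 31.0% lower), and the median was 1.97 for the 7 and 0.05 for all genes. Tnfrsf23 had the largest log2 fold change, 5.33 ± 0.25 (adjusted p = 3.87e-18), followed by Tnfrsf1a at 3.29 ± 0.14 (adjusted p = 1.76e-19). Tnf (2.06 ± 0.17), Tnfrsf1b (1.97 ± 0.16) and Tnfsf14 (1.38 ± 0.20) were also higher, with adjusted p of 2.15e-12, 2.75e-12 and 7.30e-07. Tnfsf10 was lower at -4.87 ± 0.52 (adjusted p = 2.01e-09). This comparison and the one before share the neutrophil-like sums. With library totals the median of all genes was -0.19 in place of 0.05, and calls split into 2585 higher and 3636 lower in place of 3220 and 2926.

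Ltb gave -0.37 ± 0.19 between neutrophil-like and T-cell-like sums and did not pass (adjusted p = 0.0880), although the ranges of CPM did not overlap. It was called lower in 5 of 11 alternatives, with log2 fold changes between -0.65 and -0.31 and adjusted p between 3.98e-09 and 0.210. Library totals and leaving out replicate 2 each gave -0.65. Per 100 barcodes the classes stood further apart, at 90.3 ± 21.8 UMIs in neutrophil-like and 239 ± 56.2 UMIs in T-cell-like cells. After thinning to 600 UMIs, with shallower barcodes left out, 33.7% of neutrophil-like and 50.8% of T-cell-like barcodes kept an Ltb UMI. The shares were 6.41% of monocyte/macrophage-like and 2.27% of epithelial-like barcodes.

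T-cell markers were measured beside Ltb in every class. The summed level of 10 T-cell markers was 51.6 to 106 CPM in neutrophil-like sums, against 7415 to 7894 CPM in T-cell-like sums. Monocyte/macrophage-like sums had more of them than neutrophil-like sums, 181 to 354 CPM, and less Ltb. Leaving out the small neutrophil-like subcluster with T-cell genes, an alternative chosen after seeing the data, gave a log2 fold change for Ltb of 3.09 over monocyte/macrophage-like sums. The part of T-cell RNA in the Ltb level of neutrophil-like sums was not tested. Lta, the partner subunit of lymphotoxin beta, was at 1.72 CPM in neutrophil-like sums from 11 UMIs, against 36.5 ± 4.89 CPM in T-cell-like sums. Ltbr, the receptor, ran the other way, at 46.7 ± 5.07 CPM in neutrophil-like and 2.57 ± 0.515 CPM in T-cell-like sums.

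**Figure D3:**
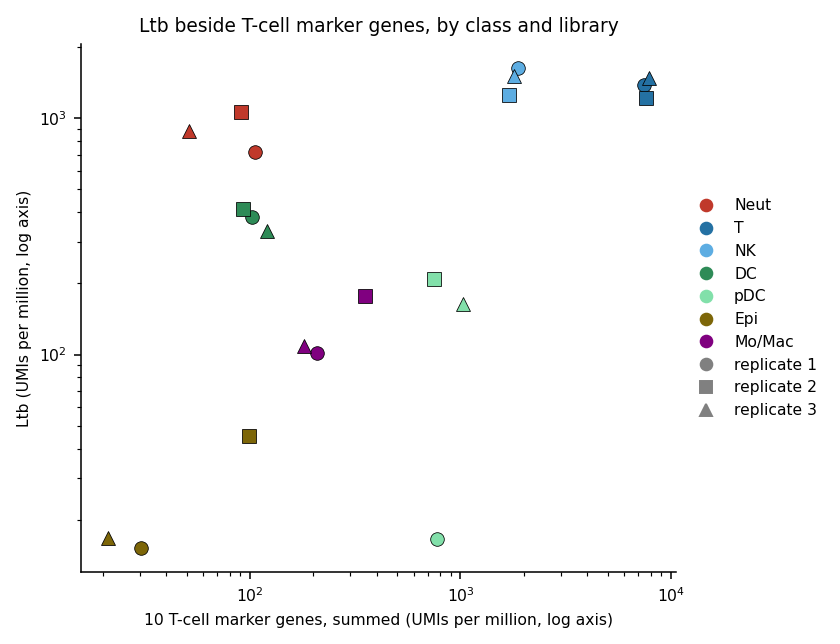
Ltb (CPM, log axis) against the summed level of 10 T-cell markers (CPM, log axis), 1 point a library and class. Neutrophil-like points combine 717 to 1060 CPM of Ltb with 51.6 to 106 CPM of T-cell markers, left of and above the monocyte/macrophage-like points.

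Of the pathway lists in this comparison, 11 of 15 NF-kB feedback and target genes were higher in neutrophil-like cells and 4 lower, with both scalings. Tnfaip2 (5.80 ± 0.24), Ier3 (5.66 ± 0.25) and Zfp36, which encodes an mRNA decay factor (3.13 ± 0.16), were highest by log2 fold change. Other ligands went the other way, with 5 of 7 lower and 1 higher. Fasl, the ligand of Fas, was at 1.24 ± 0.258 CPM in neutrophil-like and 62.5 ± 1.89 CPM in T-cell-like sums. Tnfsf11 (RANKL) had 0 UMIs in neutrophil-like sums, at least 58.0-fold lower than in T-cell-like sums (3 counts over the class). Of other receptors 8 of 16 were higher and 6 lower (7 and 6 with library totals). Tnfrsf25, a receptor of T cells, and Tnfrsf4 (OX40) were lower, at -6.65 ± 0.36 and -4.38 ± 0.29. Adaptor genes split into 9 higher and 6 lower of 22 (6 and 9 with library totals), and death receptor signalling genes into 7 higher and 2 lower of 10 (4 and 2). Of the 6 shedding genes 2 were higher and 1 lower. Adam17, the main TNF-cleaving protease, was higher by 1.42 ± 0.18 and Rhbdf2, its regulator, by 1.91 ± 0.25.

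T-cell-like cells against monocyte/macrophage-like cells gave 4 genes higher, 2 lower and 1 not called of 7, where 58.4% of all genes passed. The medians were 0.49 for the 7 genes and -0.01 for all genes. Ltb was higher by 3.47 ± 0.21 on the log2 scale (adjusted p = 3.60e-15), Tnfsf10 by 2.45 ± 0.30 (adjusted p = 3.09e-08) and Tnfsf14 by 1.62 ± 0.23 (adjusted p = 1.06e-06). Tnfrsf1a was lower at -2.33 ± 0.14 (adjusted p = 1.74e-15) and Tnfrsf23 at -1.33 ± 0.34 (adjusted p = 0.00132). Tnfrsf1b did not pass, at -0.32 ± 0.17 (adjusted p = 0.101). Tnf was higher by 0.49 ± 0.18 (adjusted p = 0.0217), a call kept in 7 of 11 alternatives with adjusted p between 0.000725 and 0.366, and lost without replicate 1 (0.33), without the library term (0.50), with DESeq2 (0.48) and without the barcodes of highest doublet score (0.41).

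The pathway genes around them included Lta, at 36.5 ± 4.89 CPM in T-cell-like and 0.520 ± 0.0725 CPM in monocyte/macrophage-like sums, and Cd40lg, the ligand of Cd40, with a log2 fold change of 6.02 ± 0.39. In all, 5 of 7 other ligands were higher and 2 lower. Of 15 NF-kB feedback and target genes 4 were higher and 8 lower, and of 16 receptors 7 were higher and 7 lower. Tnfaip3, which encodes the inhibitor A20, was higher by 2.08 ± 0.14, while Zfp36 and Ier3 were lower at -2.20 ± 0.16 and -2.15 ± 0.22. Of 22 adaptor genes 7 were higher and 3 lower (5 and 4 with library totals). Of 6 shedding genes 1 was higher and 4 lower, among them Adam17 at -1.53 ± 0.17. Of 10 death receptor signalling genes 0 were higher and 2 lower (0 and 4 with library totals).

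Dendritic-cell-like cells against monocyte/macrophage-like cells gave 1 gene higher, 5 lower and 1 not called of 7, where 30.1% of all genes passed (14.1% higher and 16.0% lower). The medians were -1.23 for the 7 genes and -0.06 for all genes. Ltb was higher, by 1.66 ± 0.21 on the log2 scale (adjusted p = 1.28e-07). Tnfrsf1a was lower at -1.23 ± 0.15 (adjusted p = 5.52e-08) and Tnfrsf1b at -0.73 ± 0.22 (adjusted p = 0.0115). Tnfsf14, with 0 UMIs in dendritic-cell-like sums, was at least 5.05-fold lower (3 counts over the class). Tnf (-1.12 ± 0.31, adjusted p = 0.00584) and Tnfrsf23 (-1.38 ± 0.48, adjusted p = 0.0260) were lower too, but less stably. Of these, Tnf kept its call in 8 of 11 alternatives (adjusted p 6.69e-06 to 0.123), lost it without replicate 1 (-0.91) or replicate 2 (-0.73), and stood at -1.77 without replicate 3. Tnfrsf23 kept it in 7 of 11 (adjusted p 0.00242 to 0.0930) and also lost it without replicate 1 (-1.39) or replicate 2 (-1.35). Only 3 of the 6 calls passed with DESeq2.

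Of the adaptor and NF-kB activation genes 11 of 22 were higher in dendritic-cell-like cells and 2 lower (10 and 2 with library totals). They included Traf1 (2.90 ± 0.17), Birc2 (2.24 ± 0.21), Relb (1.87 ± 0.15) and Map3k14, the kinase NIK of the noncanonical NF-kB route (1.85 ± 0.22). Shedding genes were lower in 3 of 6 and higher in 0, with Adam17 at -1.28 ± 0.20. NF-kB feedback and target genes split into 4 higher and 3 lower of 15 (3 and 3 with library totals). Other receptors split into 5 and 3 of 16 (5 and 5), death receptor signalling genes into 2 and 4 of 10 (1 and 5), and other ligands into 0 and 2 of 7.

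The 3 neutrophil states were compared next. Subclusters of neutrophil-like barcodes were assigned by their Siglecf, Cxcl3 or Retnlg level. Retnlg is a neutrophil gene, Cxcl3 encodes a neutrophil chemoattractant, and Siglecf marks a neutrophil population described in mouse tumours. Siglecf-high barcodes numbered 826, 884 and 1151, Cxcl3-high barcodes 563, 506 and 586, and Retnlg-high barcodes 161, 531 and 311 in replicates 1, 2 and 3. Their median depths were 796, 1095 and 984 UMIs. In Siglecf-high sums the 20 most abundant genes took 20.9% of UMIs, in Cxcl3-high sums 33.6% and in Retnlg-high sums 37.2%. T-cell markers summed to 43.5 to 87.0 CPM in Siglecf-high, 38.1 to 41.6 CPM in Cxcl3-high and 61.0 to 105 CPM in Retnlg-high sums.

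The receptors did not share 1 order over the states. Tnfrsf1b was at 75.0, 67.1 and 103 CPM in Siglecf-high sums, at 285, 241 and 251 CPM in Cxcl3-high sums and at 154, 117 and 99.1 CPM in Retnlg-high sums. All Cxcl3-high values lay above the rest, and the other states overlapped. Tnfrsf23 was at 114, 95.6 and 115 CPM in Siglecf-high, at 284, 293 and 359 CPM in Cxcl3-high and at 154, 123 and 125 CPM in Retnlg-high sums. Here the 3 states did not overlap. Tnfrsf1a had its highest mean in the Retnlg-high state, with 163 ± 11.4 CPM in Siglecf-high, 160 ± 14.5 CPM in Cxcl3-high and 271 ± 76.6 CPM in Retnlg-high sums. The Retnlg-high values of 185, 299 and 330 CPM were all above the highest value of the other states, 172 CPM. The states overlapped for Tnfrsf1a when set by UMIs of the 3 genes in each barcode. Retnlg-high sums then had 168, 248 and 272 CPM, Cxcl3-high sums 130, 244 and 221 CPM and Siglecf-high sums 167, 212 and 181 CPM.

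The ligands followed other orders. Ltb was at 843, 975 and 923 CPM in Siglecf-high, at 474, 608 and 519 CPM in Cxcl3-high and at 1028, 1494 and 1301 CPM in Retnlg-high sums, with no overlap between the states. The order depends on how states are set. With states set by UMIs of the 3 genes in each barcode, Ltb was at 873, 997 and 1003 CPM in Siglecf-high, at 467, 554 and 424 CPM in Cxcl3-high and at 698, 931 and 601 CPM in Retnlg-high sums, so the mean was then highest in the Siglecf-high state. Tnfsf14 was at 17.9, 15.7 and 19.2 CPM in Siglecf-high, at 52.9, 60.7 and 56.6 CPM in Cxcl3-high and at 67.7, 56.8 and 91.5 CPM in Retnlg-high sums. Siglecf-high values were the low ones, and the other 2 states overlapped. Tnf was at 166, 193 and 184 CPM in Siglecf-high, at 237, 166 and 222 CPM in Cxcl3-high and at 80.0, 134 and 173 CPM in Retnlg-high sums. All 3 states overlapped for Tnf. Tnfsf10 and Tnfrsf10b, with at most 2 and 6 UMIs in a state, were not tested.

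**Figure D4:**
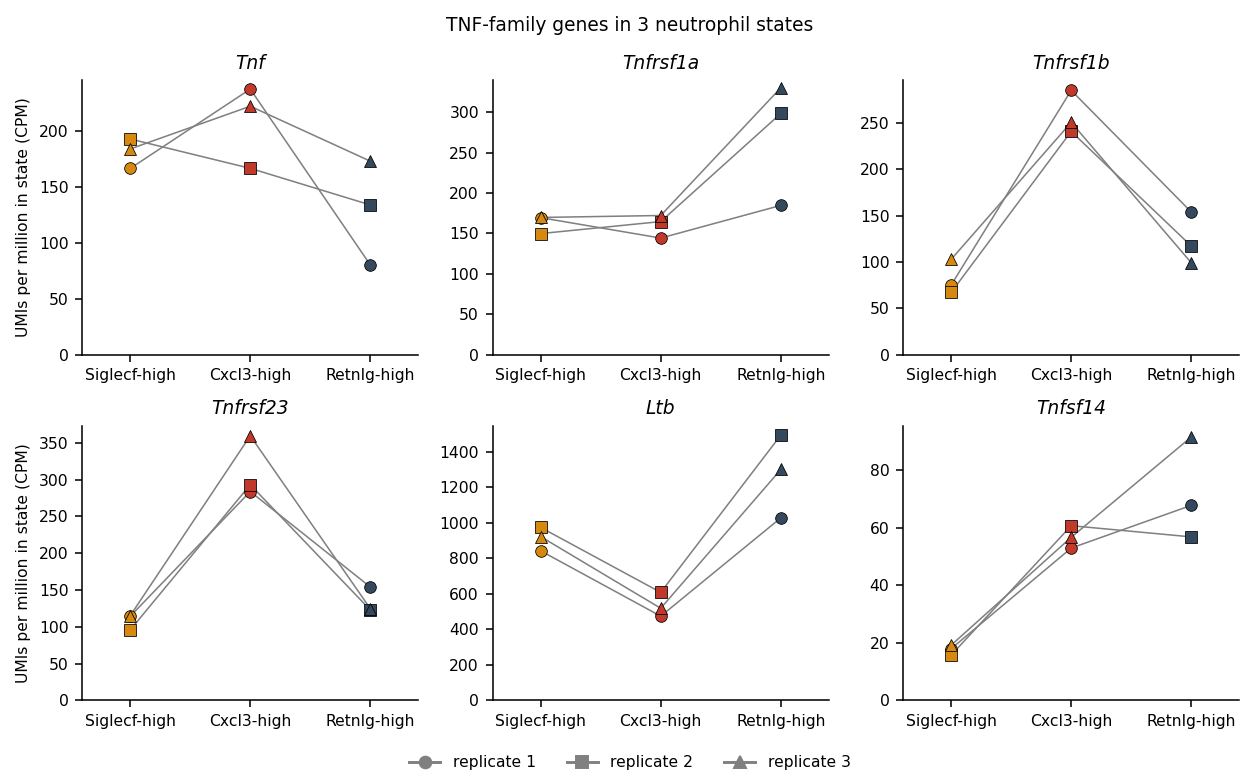
CPM of 6 genes by neutrophil state (states set by subcluster), 1 point a library, with grey lines joining the same library. Tnfrsf1b and Tnfrsf23 peak in the Cxcl3-high state, Ltb and Tnfrsf1a in the Retnlg-high state, and Tnfsf14 is lowest in the Siglecf-high state.

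In the fit over states, Siglecf-high against Retnlg-high cells gave 5 of 6 genes lower and 1 not called, where 48.9% of the 5305 genes tested passed (24.6% higher and 24.3% lower). The medians were -1.12 for the 6 genes and 0.04 for all genes. Tnfsf14 was lower at -2.63 ± 0.28 on the log2 scale (adjusted p = 1.10e-10), Tnfrsf1a at -1.43 ± 0.14 (adjusted p = 7.11e-12), Tnfrsf1b at -1.13 ± 0.19 (adjusted p = 4.26e-06), Ltb at -1.12 ± 0.09 (adjusted p = 1.02e-13) and Tnfrsf23 at -0.89 ± 0.17 (adjusted p = 3.59e-05). With states set by UMIs, Ltb was at -0.34 (adjusted p = 0.0436, the highest of its 12 alternatives, the lowest being 7.28e-31), while its CPM was higher in Siglecf-high than in Retnlg-high sums in 3 of 3 libraries. Tnf gave -0.24 ± 0.17 (adjusted p = 0.241), while its CPM was higher in Siglecf-high sums in 3 of 3 libraries.

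These values depend on the scaling more than those between classes. With library totals the median of all genes was 0.68 in place of 0.04, and calls split into 2732 higher and 609 lower in place of 1307 and 1287. Tnf then turned to 0.40 and passed (adjusted p 0.00945 to 0.999 over its 12 alternatives, called in 3), and Tnfrsf23, at -0.24, no longer passed. Tnfsf14, Tnfrsf1a, Tnfrsf1b and Ltb stayed called lower. Relative to the median of all genes, Tnf was at -0.29 with TMM and -0.27 with library totals, so its place among the genes tested was nearly the same.

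Cxcl3-high against Retnlg-high cells gave 3 genes higher, 2 lower and 1 not called of 6, where 35.7% of all genes passed (19.8% higher and 15.9% lower). The medians were 0.27 for the 6 genes and 0.00 for all genes. Tnfrsf23 (1.42 ± 0.15, adjusted p = 7.97e-11), Tnfrsf1b (1.26 ± 0.16, adjusted p = 2.14e-08) and Tnf (0.74 ± 0.17, adjusted p = 0.000390) were higher on the log2 scale. Ltb (-1.13 ± 0.10, adjusted p = 3.64e-13) and Tnfrsf1a (-0.67 ± 0.14, adjusted p = 0.000119) were lower. Tnfsf14 did not pass (-0.20 ± 0.23, adjusted p = 0.555). With library totals the median of all genes was -0.15, calls split into 847 higher and 1088 lower in place of 1051 and 845, and the 6 genes kept their directions. Where states were set by UMIs of the 3 genes in each barcode, Tnfrsf1b (0.25), Tnfrsf23 (0.59) and Tnfrsf1a (-0.50) no longer passed. Over 12 alternatives the adjusted p ran from 9.88e-16 to 0.531 for Tnfrsf1b, 8.96e-19 to 0.0507 for Tnfrsf23 and 1.72e-05 to 0.113 for Tnfrsf1a. Both comparisons with the Retnlg-high state share its sums.

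Siglecf-high against Cxcl3-high cells gave 5 of 6 genes lower and 1 not called, where 65.3% of all genes passed (33.2% higher and 32.1% lower). The medians were -1.64 for the 6 genes and 0.09 for all genes. Tnfsf14 (-2.44 ± 0.25, adjusted p = 1.76e-11), Tnfrsf1b (-2.38 ± 0.14, adjusted p = 5.96e-19) and Tnfrsf23 (-2.31 ± 0.13, adjusted p = 3.21e-20) were lower by most. Tnf (-0.98 ± 0.14, adjusted p = 3.28e-08) and Tnfrsf1a (-0.75 ± 0.13, adjusted p = 4.10e-06) were lower under TMM alone among the 2 scalings. With library totals they were at -0.18 and 0.043 and did not pass, while the median of all genes was 0.88 in place of 0.09 and calls split into 3304 higher and 858 lower in place of 1759 and 1703. Ltb was at 0.01 ± 0.09 (adjusted p = 0.926) with TMM and at 0.81, called higher, with library totals. Over their 12 alternatives the adjusted p ran from 1.58e-17 to 0.234 for Tnf, 1.54e-06 to 0.787 for Tnfrsf1a and 7.48e-10 to 0.966 for Ltb.

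**Figure D5:**
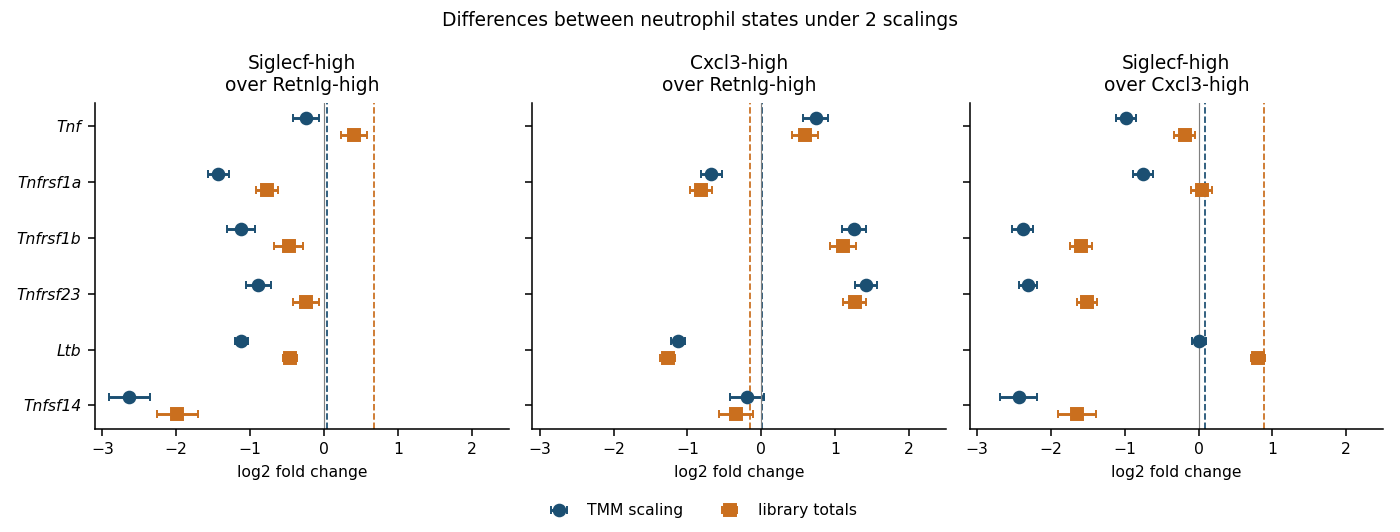
Log2 fold change ± SE of 6 genes in the 3 comparisons between neutrophil states, with TMM (circles) and with library totals (squares); dashed lines are the median of all genes tested under each scaling. In both comparisons of the Siglecf-high state the squares lie right of the circles by about the shift of the median, 0.04 to 0.68 over Retnlg-high and 0.09 to 0.88 over Cxcl3-high cells.

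Of the pathway lists, the NF-kB feedback and target genes were all tested between states. In Siglecf-high over Retnlg-high cells 11 of 15 were lower and 0 higher with TMM, and 7 lower and 2 higher with library totals. Tnfaip3 gave -2.08 ± 0.24, Nfkbia -2.01 ± 0.10, Zfp36 -1.79 ± 0.10 and Nfkbiz, an atypical IkB protein, -1.43 ± 0.15. In Siglecf-high over Cxcl3-high cells 9 of 15 were lower and 1 higher with TMM, and 7 lower and 4 higher with library totals, with Tnfaip3 at -3.04 ± 0.18, Nfkbia at -2.68 ± 0.10, Zc3h12a, which encodes an mRNA-cleaving enzyme, at -2.59 ± 0.15 and Ier3 at -2.26 ± 0.10. In Cxcl3-high over Retnlg-high cells 7 were higher and 4 lower with TMM, and 6 and 4 with library totals. Zc3h12a was higher there by 1.69 ± 0.18 and Nfkbib by 1.27 ± 0.19, while Tnfaip2 was lower at -1.24 ± 0.10 and Tnfaip8 at -1.04 ± 0.22. Of 18 adaptor genes tested, 1 was higher and 5 lower in Siglecf-high over Retnlg-high cells (5 and 1 with library totals), 3 and 7 in Siglecf-high over Cxcl3-high cells (8 and 2), and 1 and 0 in Cxcl3-high over Retnlg-high cells (1 and 4).

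Of the other receptors, 8 of 24 were tested in the state fit. Fas was at 37.8 ± 13.9 CPM in Siglecf-high, 110 ± 15.7 CPM in Cxcl3-high and 146 ± 20.9 CPM in Retnlg-high sums, and was lower in the Siglecf-high state than in either other one under both scalings. Tnfrsf26 was at 27.1 ± 2.52 CPM in Siglecf-high, 144 ± 19.8 CPM in Cxcl3-high and 38.6 ± 14.8 CPM in Retnlg-high sums. It was higher in Cxcl3-high than in Retnlg-high cells by 2.20 ± 0.23 on the log2 scale, as Tnfrsf23 was. Of death receptor signalling genes, 8 of 12 were tested. Bax, which permeabilises mitochondria in apoptosis, was at 448 ± 77.1 CPM in Siglecf-high, 471 ± 53.4 CPM in Cxcl3-high and 145 ± 20.1 CPM in Retnlg-high sums, and was higher in both states than in the Retnlg-high state under both scalings. Birc3, an inhibitor of apoptosis bound to TNF receptors, was lower in Siglecf-high than in Retnlg-high cells, at -1.63 ± 0.18.

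Subclusters within classes differed in level as well, given here without a test. A neutrophil-like subcluster of 483 barcodes led by interferon-induced genes such as Cxcl10 belonged to no state. It had 270 ± 52.6 CPM of Tnf and 1494 ± 171 CPM of Ltb, both above the class means of 187 and 886 CPM. Among T-cell-like clusters, one of 883 barcodes led by Il17a and Trdc, genes of interleukin-17-producing and gamma-delta T cells, had 115 ± 4.69 CPM of Tnf and 36.6 ± 7.94 CPM of Tnfsf14. A cluster of 1453 barcodes led by Gzmk and Cd8a had 16.8 ± 1.40 CPM of Tnf and 5.58 ± 1.36 CPM of Tnfsf14. For Tnfsf10 the Cd8a cluster had 36.0 ± 10.4 CPM. Ltb was more even, at 1350 CPM in the Il17a cluster, 1385 CPM in the Cd8a cluster and 1732 ± 189 CPM in a cluster of 614 barcodes led by Tnfrsf4, Ctla4 and Ikzf2.

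Monocyte-like barcodes (1062) and macrophage-like barcodes (2080) made up the combined class. Cd209a, also used here as a dendritic-cell marker, led the monocyte-like cluster, beside the monocyte markers Ms4a4c, Plac8 and Ccr2. The part of dendritic cells in the monocyte-like levels was not tested. Tnfrsf1a was at 154, 163 and 188 CPM in monocyte-like sums, against 104, 89.6 and 112 CPM in macrophage-like sums, which did not overlap. Ltb averaged 181 ± 27.8 CPM in monocyte-like and 115 ± 45.7 CPM in macrophage-like sums, and Tnfrsf23 8.0 ± 1.3 CPM in monocyte-like and 15.5 ± 2.1 CPM in macrophage-like sums. No test was made between them.

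T cells and dendritic cells were also divided by marker UMIs. Foxp3-detected barcodes had a UMI of the regulatory T cell gene Foxp3 and none of Cd8a or Cd8b1, with or without a Cd4 UMI, and numbered 6, 25 and 7. CD4 barcodes had a Cd4 UMI and none of Foxp3, Cd8a or Cd8b1, and numbered 25, 86 and 34. Ltb was at 1484, 1992 and 3575 CPM in Foxp3-detected sums, against 810, 1079 and 2013 CPM in CD4 sums. It was higher in each library but the ranges overlapped, and the log2 fold change of 0.83 did not pass (adjusted p = 0.0782), in a comparison where 1.13% of 793 genes passed, 1 higher and 8 lower (3 and 5 with library totals). CD8 sums had 1252, 1044 and 1481 CPM, and their log2 fold change over CD4 sums was 0.03 (-0.020 with library totals), with 5.93% of genes called. Of dendritic-cell-like barcodes, 120 with Cd209a or Mgl2, genes of a conventional type 2 subset, had 604 ± 97.4 CPM of Ltb. The 81 with Ccr7 or Fscn1, genes of migratory cells, had 266 ± 74.8 CPM, and the 117 with Xcr1 or Clec9a, genes of the type 1 subset, had 35.3 ± 7.72 CPM. For Tnfrsf1b the Ccr7 or Fscn1 gate was highest, with 64.8, 84.9 and 115 CPM, against a mean of 17.4 ± 9.77 CPM in the Xcr1 or Clec9a gate. In replicate 3 the Ccr7 or Fscn1 gate held 11 barcodes and the Cd209a or Mgl2 gate 15, under the minimum of 20 set for this division, so no test between the gates is given.

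Icam1, an adhesion molecule gene named in the title of the study, divides neutrophil-like cells in another way. Barcodes were thinned to 600 UMIs, and the 771 shallower ones were left out. Of the rest, 92, 140 and 161 barcodes kept an Icam1 UMI and 1286, 1675 and 2049 did not. Tnf was at 453, 298 and 611 CPM in Icam1-detected sums, against 181, 157 and 190 CPM in Icam1-undetected sums, with no overlap. The log2 fold change was 1.30 ± 0.18 (adjusted p = 1.17e-06), and Tnf was the 1 gene called of the 6 tested, where 0.963% of 4051 genes passed (0.494% higher and 0.469% lower), which is 20 higher and 19 lower genes, or 31 and 12 with library totals. Its call was kept in 9 of 11 alternatives (adjusted p 4.48e-09 to 0.300). It was lost without replicate 3 (1.01) and with stricter barcode filters (1.10). Of 14 NF-kB feedback and target genes, 3 were higher and 0 lower (6 and 0 with library totals). The 3 were Nfkbie (1.54 ± 0.35), Nfkbia (0.89 ± 0.09) and Sod2 (0.79 ± 0.18), while no gene of the other 5 lists was called.

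For each of the genes, the 3 with the most similar pattern over the 21 library-by-class sums were found by Pearson's r of log2(CPM + 10) among 9558 genes. The coefficients of the genes named ran from 0.896 for Nfkbid to 0.968 for Nlrc3. They were Nfkbia, Ifit1 and Nfkbid for Tnf, and Ralb, P4hb and Vamp8 for Tnfrsf1a. For Tnfrsf1b they were Plk3, Rtp4 and Slc16a3, and for Tnfsf10 Nlrc3, Il2rb and Itm2a. Chil1, Ltf and Hist1h4i were most like Tnfrsf23, Socs1, Nabp1 and Dusp2 most like Ltb, and Samd9l, Isg20 and Nck1 most like Tnfsf14. These coefficients describe 7 classes in 3 libraries, whose sums share depth and composition, and carry no test.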

How the data were processed

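Counts are unique molecular identifiers (UMIs) per gene and barcode, as deposited by the authors in 1 matrix a library. Cell Ranger, Seurat and build mm10 are named in the submitters' processing notes without version or role, and the file headers give software version 3.0.0. The labels name a 5′ and a 3′ chemistry side by side. The genes, related lists and markers were chosen with earlier results of these data known.

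Kept barcodes had 200 genes or more and no more than 10% mitochondrial UMIs (22 and 107 failed). They were scaled to 10000 UMIs and clustered by scanpy 1.11.5 (2000 variable genes, 30 components, 15 neighbours, Leiden resolution 1, and 0.5 within neutrophil-like barcodes). A cluster was named from at least 3 markers, each in 10% of the cluster and 2-fold over other barcodes. A neutrophil state was called where Siglecf, Cxcl3 or Retnlg was at least 1.5-fold above the mean.

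UMIs were summed per library and class, and tested in edgeR 4.0.16 (R 4.3.3) by the quasi-likelihood test with TMM scaling, a filter on low counts, and Benjamini-Hochberg adjustment at 0.05 over all genes. The sums compared come from the same libraries, so the library was a term in the model. Sums needed 20 barcodes a library, which the Foxp3-detected sums did not reach in replicates 1 and 3 but were tested all the same. The procedure was also run on simulated counts, drawn from the same expression profile in every class apart from a set of changed genes. Such counts cannot show how differences in composition between classes act on the scaling. Named genes were the 8 members, up to 4 called genes of each list with the largest log2 fold change, and the 3 most similar genes.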

Additional observations from a re-analysis of the deposited data

How the results depend on the processing

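Over 607 alternatives for 54 fold changes, 554 kept direction and side of the threshold, 20 lost the threshold, 15 gained it and 18 changed sign. For dendritic-cell-like over monocyte/macrophage-like sums, 3 genes were called with DESeq2 (6 in the report). For Cxcl3-high over Retnlg-high cells, 2 were called with states set by UMIs (5 in the report). For the Icam1 division (1 in the report), 2 were called with library totals, with at least 2 Icam1 UMIs, and with thinning to 901 UMIs, 0 with stricter barcodes (500 genes or more and no more than 5% mitochondrial UMIs), and 0 to 1 when replicates were left out. The cause was not tested.

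The following log2 fold changes changed sign. For Tnf in Siglecf-high over Retnlg-high cells, library totals gave 0.40 and states by UMIs 0.66 (-0.24 in the report). For Tnfsf14 in Cxcl3-high over Retnlg-high cells, leaving out replicates gave -0.49 to 0.081 and stricter barcodes 0.16. For Siglecf-high over Cxcl3-high cells, Tnfrsf1a was 0.043 with library totals (-0.75 in the report), and Ltb was -0.024 to 0.029 with a replicate left out, -0.16 with stricter barcodes, -0.014 without high doublet scores and -0.070 at subclustering resolution 1. In the Icam1 division, leaving out a replicate gave -0.32 to 0.086 for Tnfrsf23, -0.35 to 0.090 for Tnfrsf1a and -0.56 to 0.31 for Tnfsf14, and with at least 2 Icam1 UMIs Tnfrsf1a was 0.0044 and Tnfrsf23 0.13. For Ltb in CD8 over CD4 cells, library totals gave -0.020, no replicate block -0.0052 and leaving out a replicate -0.19 to 0.30.

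Over all genes, calls in Siglecf-high over Retnlg-high cells (2594) numbered 1617 with stricter barcodes and 1558 with states by UMIs. In Cxcl3-high over Retnlg-high cells (1896) they numbered 950 and 496, and in Siglecf-high over Cxcl3-high cells (3462) 1502 with states by UMIs. In the Icam1 division (39) they ran from 6 with stricter barcodes to 70 without the filter on low counts, with 7 without the replicate block and 8 to 23 with a replicate left out. States thinned to 600 UMIs without shallower barcodes, and the neutrophil-like class without its subcluster of T-cell genes, were chosen after seeing the data. Of the 8 genes, Tnfrsf10b (40 UMIs) and Tnfsf10 (275 UMIs) had the fewest UMIs, and the part of depth in this was not tested.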
